A study of Mus musculus with 2 samples.

Results

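The 8 genes described here are those of the type 1 programme of regulatory T (Treg) cells: Tbx21, which encodes the transcription factor T-bet, the IL-12 receptor genes Il12rb1 and Il12rb2 with their signal transducer Stat4, the interferon-gamma receptor genes Ifngr1 and Ifngr2, the cytokine gene Ifng, and the IL-27 receptor gene Il27ra. They were chosen by symbol among the 27998 genes of the deposited gene lists, and all 8 were found there under 1 identifier each. Their levels were compared between tissues, and their detection was compared between cells with and without a UMI of Cxcr3, a chemokine receptor gene that T-bet is known to induce.

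The data are droplet single-cell RNA counts (unique molecular identifiers, UMIs, each standing for 1 captured transcript) from 2 libraries of sorted cells of Foxp3Cre-YFP mice on the C57BL/6 strain, aged 5 to 8 weeks, in which Foxp3 drives Cre and a yellow fluorescent protein. The first library came from lymph nodes of unchallenged mice and the second from B16 melanoma, a transplanted tumour line, at day 14. How the cells were gated and how many mice went into a library is not stated. With 1 library per tissue no replicate check exists, no test between tissues was made, and the intervals given cover counting error only. The rule left 2202 lymph node cells with 10681101 UMIs and 1457 tumour cells with 16669263 UMIs. The tumour cells were deeper, with a median of 8766 UMIs against 4100, so shares of cells were compared after every cell had been thinned at random to 1811 UMIs, the lymph node cell threshold. The libraries shared 1 cell barcode. The labelled cell type was checked by its markers. At equal depth the CD3 chain gene Cd3e had a UMI in 62.2% of cells from lymph node and 64.9% from tumour, the Treg gene Ikzf2 in 55.7% and 81.9%, and Foxp3 itself, which is sparsely counted, in 4.63% and 4.26%.

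IL-12 binds a receptor of 2 chains, the products of Il12rb1 and Il12rb2, and signals through STAT4, whereas interferon-gamma binds a receptor of IFNGR1 and IFNGR2. In conventional CD4 T cells these signals and T-bet reinforce one another during differentiation into T helper type 1 cells, which make interferon-gamma, and such cells are known to limit Ifngr2. A fraction of Treg cells turns on T-bet and CXCR3 at sites of type 1 inflammation, where interferon-gamma and IL-27 are known inducers. Il12rb1 is shared with the IL-23 receptor, and IL-27 signals through the products of Il27ra and Il6st.

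The promoter windows of 4 members are shown: Il12rb2 and Ifng because they hold the STAT motif described next, and Ifngr1 and Ifngr2 because they encode a receptor pair whose levels went opposite ways. RefSeq windows on GRCm38.p6, from 250 bases before to 50 bases after an annotated start, were available for 6 of the 8 members, 7 windows in all. They were searched on both strands for AGGTGT, the core of the T-box site bound by T-bet, and for TTCNNNGAA, the STAT site. Capitals mark the matches, and no matches of the 2 motifs overlapped. The Il12rb2 window lies at chr6:67376139-67376438 on the minus strand, the Ifng window at chr10:118440796-118441095, the Ifngr1 window at chr10:19591699-19591998 and the Ifngr2 window at chr16:91546809-91547108, all 3 on the plus strand, and each is written 5′ to 3′ on its gene's strand.
Il12rb2: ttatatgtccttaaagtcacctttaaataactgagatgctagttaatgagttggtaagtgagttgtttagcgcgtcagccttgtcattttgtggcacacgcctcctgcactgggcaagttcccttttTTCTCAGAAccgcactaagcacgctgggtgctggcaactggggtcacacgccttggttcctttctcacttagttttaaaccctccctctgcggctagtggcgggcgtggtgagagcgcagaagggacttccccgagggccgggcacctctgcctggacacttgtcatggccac
Ifng: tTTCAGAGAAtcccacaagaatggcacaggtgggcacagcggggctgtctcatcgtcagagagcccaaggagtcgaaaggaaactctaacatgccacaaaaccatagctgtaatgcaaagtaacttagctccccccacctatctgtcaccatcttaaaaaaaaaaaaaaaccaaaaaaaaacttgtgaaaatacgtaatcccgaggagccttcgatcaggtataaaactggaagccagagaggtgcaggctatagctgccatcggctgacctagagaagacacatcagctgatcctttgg
Ifngr1: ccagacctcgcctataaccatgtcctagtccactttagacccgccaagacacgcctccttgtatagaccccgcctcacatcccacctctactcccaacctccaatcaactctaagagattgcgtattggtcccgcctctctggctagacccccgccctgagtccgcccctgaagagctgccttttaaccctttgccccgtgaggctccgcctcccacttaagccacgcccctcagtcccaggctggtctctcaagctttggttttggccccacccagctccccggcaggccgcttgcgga
Ifngr2: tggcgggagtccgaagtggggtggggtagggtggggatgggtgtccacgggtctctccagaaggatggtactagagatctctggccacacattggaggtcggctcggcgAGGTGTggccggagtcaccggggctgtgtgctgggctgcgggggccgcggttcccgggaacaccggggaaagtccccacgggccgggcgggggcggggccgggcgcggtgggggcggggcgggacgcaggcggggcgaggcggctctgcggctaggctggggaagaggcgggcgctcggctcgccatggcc
The STAT motif was found in the windows of Il12rb2, beginning at position -123 from the start, and of Ifng, at position -249, where 8.30% of all 32851 RefSeq windows of that length hold it. The T-box core was found in the Ifngr2 window only, at position -141, where 13.7% of all windows hold it. The windows of Tbx21, Stat4 (2 windows), Ifngr1 and Cxcr3 held neither motif. A match describes these letters only.

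Levels are given as CPM, the UMIs of a gene scaled to a total of 1000000. Of the 8 members, 5 stood 2-fold or more above their lymph node level in tumour, 1 stood as far below it, and 2 lay between. The same was so of 14.3% of all 11035 genes with a total of at least 20 UMIs in the higher direction and of 9.66% in the lower. The median log2 ratio of tumour to lymph node was 2.57 over the 8 genes and 0.12 over all genes tested, with Il12rb2 entered at its lower bound. The 8 genes were thus not uniform. Tbx21, both IL-12 receptor genes, Ifngr1 and Ifng stood at least 2-fold higher in tumour, and Ifngr2 stood lower. Stat4 was 1.85-fold higher (1.60 to 2.14), short of 2-fold, and Il27ra differed little.

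**Figure D1:**
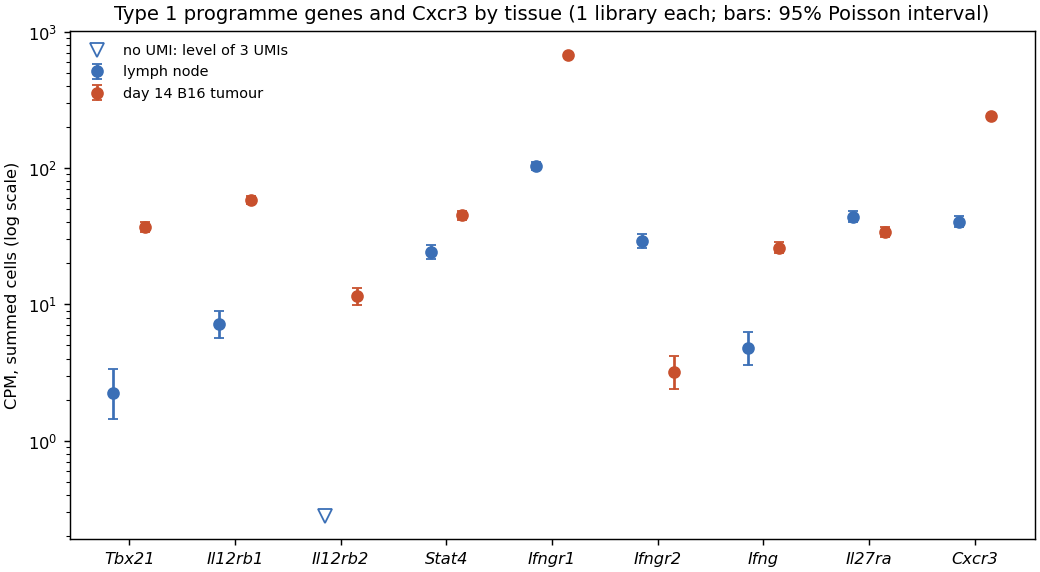
Level of each member and of Cxcr3 in CPM (log axis) over the summed cells of the lymph node (blue) and tumour (orange) library, with 95% Poisson intervals; the open triangle marks the level that 3 UMIs would give where no UMI was found. Ifngr2 is the member whose tumour point lies far below its lymph node point, at 3.18 against 29.2 CPM.

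Tbx21 (ENSMUSG00000001444; GRCm38 chromosome 11, 97098071 to 97115331, minus strand) was nearly absent from the lymph node cells. It gave 24 UMIs there, or 2.25 CPM, in 20 of 2202 cells. In tumour it had 616 UMIs, or 37.0 CPM, in 435 of 1457 cells, which is 16.4-fold higher (95% conditional-binomial interval 10.9 to 25.9). At equal depth 6 lymph node cells (0.272%) and 96 tumour cells (6.59%, Clopper-Pearson 95% interval 5.37 to 7.99) held a UMI. Its transcripts were thinly spread: 301 of the 435 positive tumour cells had a single UMI, 134 had 2 or more and the highest cell had 6. The ratio ranged from 10.6 in cells with a Foxp3 UMI, with 4 Tbx21 UMIs in lymph node, to 30.1 after the deepest 5% of cells had been left out. Eomes, the T-box gene related to Tbx21 and typical of natural killer and CD8 T cells, gave 3 lymph node UMIs and no tumour UMI.

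Both genes of the IL-12 receptor were higher in tumour. Il12rb1 (ENSMUSG00000000791; chromosome 8, 70808449 to 70821424, plus strand) gave 77 lymph node UMIs and 970 tumour UMIs, 7.21 against 58.2 CPM, a ratio of 8.07 (6.40 to 10.3). It was found at equal depth in 0.863% (0.520 to 1.34) and 11.3% (9.74 to 13.1) of cells. Il12rb2 (ENSMUSG00000018341; chromosome 6, 67291318 to 67376188, minus strand), the chain that confers high-affinity binding and recruits STAT4, was seen in tumour only: 191 UMIs in 156 cells, or 11.5 CPM, and no UMI in lymph node. It was at least 40.8-fold higher, taking 3 UMIs over the lymph node cells as the floor. The lymph node count, 0 of 2202 cells, allows a share with a UMI of up to 0.136%, while 1.99% of tumour cells (1.34 to 2.85) held one at equal depth.

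At full depth Il12rb1 was found in 43.2% of tumour cells and Il12rb2 in 10.7%. The Il12rb2 locus overlaps Serbp1 on the other strand, and the sources do not say whether counting used strand. Serbp1 had 5199 UMIs in the lymph node cells, in which Il12rb2 had none. Other members overlap genes too: Il27ra overlaps Palm3 on the other strand, and Ifng overlaps Gm49751 on its own strand. Stat4 overlaps Gm28177 on its own strand and Gm3940 on the other. Of these genes only Serbp1 and Palm3 are in the deposited gene lists. Il23r, whose product pairs with that of Il12rb1 to bind IL-23, had 1 UMI in each library. In cells with a Foxp3 UMI, of which there were 211 in lymph node and 244 in tumour, the ratio of Il12rb1 was 4.50 and the bound for Il12rb2 was 4.23, and with every cell thinned they were 14.3 and 14.6. The Il12rb2 bounds are lower there because fewer UMIs stand against the same floor.

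Stat4 (ENSMUSG00000062939; chromosome 1, 51987148 to 52107189, plus strand) was already present in lymph node cells and differed less. It gave 259 UMIs there and 748 in the tumour cells, 24.2 against 44.9 CPM, a ratio of 1.85 (1.60 to 2.14). At equal depth it was found in 5.09% (4.21 to 6.09) and 9.27% (7.83 to 10.9) of cells. The ratio passed 2 under 3 alternatives, at 2.44 without cells with 3 or more UMIs of mitotic genes, 2.08 as a mean over cells and 2.04 with the tumour UMI threshold in both libraries. It was lower, at 1.45, in cells with a Foxp3 UMI and at 1.73 both with TMM scaling and with no lineage exclusions. The IL-12 receptor kinase genes Jak2 and Tyk2 had ratios of 1.71 (1.42 to 2.06) and 1.78 (1.43 to 2.24).

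The 2 genes of the interferon-gamma receptor went opposite ways. Ifngr1 (ENSMUSG00000020009; chromosome 10, 19591949 to 19610229, plus strand), the ligand-binding chain, gave 1105 lymph node UMIs and 11153 tumour UMIs, 103 against 669 CPM, a ratio of 6.47 (6.08 to 6.89). Ifngr2 (ENSMUSG00000022965; chromosome 16, 91547072 to 91565623, plus strand), the signalling chain, gave 312 and 53, or 29.2 against 3.18 CPM, and was 9.19-fold lower in tumour (6.85 to 12.5). At equal depth the Ifngr1 share was 17.9% (16.4 to 19.6) in lymph node and 66.9% (64.4 to 69.3) in tumour, and the Ifngr2 share 5.72% (4.79 to 6.78) and 1.03% (0.577 to 1.69). In neither case do the tissues' intervals overlap, and the order is reversed between the chains.

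Ifngr1 was found in 95.1% of tumour cells at full depth. Its tumour median was 6 UMIs per cell and 930 of 1457 cells had 5 or more, whereas its lymph node median was 0 and 19 of 2202 cells had 5 or more. Ifngr2 in tumour came as single UMIs in 51 of its 52 positive cells. The size of the Ifngr2 difference changed with how cells were weighted or chosen. It was 5.78-fold lower with every cell thinned, 5.42-fold without cells with mitotic UMIs and 5.06-fold with the excluded cells put back. Those cells do hold Ifngr2, which was found in 12 of the 15 excluded tumour cells with melanoma transcripts, at a median of 70488 UMIs.

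Ifng (ENSMUSG00000055170; chromosome 10, 118441046 to 118445892, plus strand) gave 51 lymph node UMIs and 434 tumour UMIs, 4.77 against 26.0 CPM, a ratio of 5.45 (4.07 to 7.44). At equal depth 0.727% (0.416 to 1.18) of lymph node and 3.71% (2.80 to 4.81) of tumour cells held a UMI. In tumour it was the most unevenly spread member: the 10 highest of the 225 positive cells held 27.9% of its UMIs, against 20.8% for Ifngr2 (53 UMIs in all), 13.6% for Il12rb2 and 2.79% for Ifngr1, and 1 cell held 46 UMIs. In lymph node no positive cell had more than 2. The tumour cells with a Foxp3 UMI held 111 of the tumour UMIs, 37.3 CPM (30.7 to 44.9). The corresponding 211 lymph node cells held only 5 UMIs, 4.10 CPM (1.33 to 9.58), so the ratio of 9.08 is loosely bounded.

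Il27ra (ENSMUSG00000005465; chromosome 8, 84030294 to 84042589, minus strand) gave 470 lymph node UMIs and 569 tumour UMIs, 44.0 against 34.1 CPM, 1.29-fold lower in tumour (1.14 to 1.46). At equal depth it was found in 7.22% (6.17 to 8.38) and 7.14% (5.87 to 8.58) of cells, so that the shares did not differ beyond counting error. The ratio was 1.01 with every cell thinned and 1.01 without mitotic cells, which ends the direction. Its signalling partner Il6st, which encodes gp130, was 5.57-fold lower in tumour (4.65 to 6.71), at 51.5 CPM in lymph node and 9.24 CPM in tumour.

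Free RNA and other cell types were measured in the same libraries. In tumour barcodes with at most 100 UMIs, too small to be taken as cells and used here as the measure of free RNA, the level was 25.8 CPM for Tbx21, 41.9 for Il12rb1, 8.95 for Il12rb2, 627 for Ifngr1, 32.7 for Ifng and 6.90 for Ifngr2. The level in cells divided by the level in these barcodes was 0.461 for Ifngr2, 0.796 for Ifng, 1.07 for Ifngr1, 1.43 for Tbx21 and 2.23 for Il27ra, against 6.71 for Foxp3. Tumour Ifngr2 and Ifng thus did not stand above the free RNA level, nor did lymph node Tbx21 (2.25 against 3.70 CPM), Il12rb1, Ifngr1, Ifngr2 and Ifng. Cxcr3 was at the free RNA level in both libraries, at 242 CPM in tumour cells against 236 in small barcodes (1.02) and 40.5 against 45.5 in lymph node (0.891). The cell levels of tumour Il12rb2 (11.5 against 8.95 CPM) and lymph node Stat4 (24.2 against 21.1 CPM) lay within the counting intervals of the small barcodes. The small barcodes of the 2 libraries differed in the same direction as the summed cells for every member and for Cxcr3. This includes Stat4, at 21.1 CPM in lymph node and 36.0 CPM in tumour small barcodes, and Il27ra, at 27.0 and 15.3 CPM.

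A second measure came from the 15 tumour barcodes excluded for melanoma transcripts, which should lack most members. Thinned to 1811 UMIs, a UMI of Tbx21, Il12rb1, Il12rb2, Stat4, Ifngr2, Ifng or Il27ra was found in none of the 15, of Ifngr1 in 3 and of Cxcr3 in 1. At full depth, a median of 70488 UMIs, Ifngr1 was found in 15 of them, Ifngr2 in 12 and Cxcr3 in 11. Il12rb1 and Stat4 were then found in 3 each, Il27ra in 2, Tbx21 and Ifng in 1 each and Il12rb2 in none. So few barcodes bound only large background shares. Among 6 natural killer cell markers the lymph node cells held 4 UMIs and the tumour cells 0. Cd8a, a CD8 T cell gene, had no UMI in either library, and Cd8b1 was found at equal depth in 3.36% and 3.77% of cells. Markers of conventional T helper cells were present. The equal-depth share for Cd40lg was 3.77% (lymph node) and 0.892% (tumour). For Il2 it was 1.95% (lymph node) and 2.40% (tumour, 187 UMIs in all). Il21 had 1 lymph node UMI and 0 tumour UMIs. Of 3 gamma-delta T cell markers 0 were measured. Whether such cells gave part of the members' UMIs was not tested. The summed level of 4 melanoma genes was 0.0936 CPM in lymph node and 32.3 CPM in tumour cells. The part of free RNA and of melanoma transcripts in the differences was not tested. Without cells with a natural killer or CD8 T cell marker UMI the Tbx21 ratio was 16.6, and 5 members again stood 2-fold or more higher.

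Cxcr3 (ENSMUSG00000050232; chromosome X, 101731535 to 101734269, minus strand) resembled Ifngr1 in its difference between tissues. It gave 433 lymph node UMIs and 4036 tumour UMIs, 40.5 against 242 CPM, a ratio of 5.97 (5.41 to 6.61). At equal depth it was found in 142 lymph node cells (6.45%) and 538 tumour cells (36.9%).

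The tumour cells were then split by a Cxcr3 UMI. Since the Cxcr3 level in cells was 1.02 times that in small barcodes, a UMI does not by itself mark a cell that expresses Cxcr3, and free RNA in either class was not separated. With equal depth Tbx21 was found in 36 of 538 cells with a Cxcr3 UMI (6.69%, 4.73 to 9.14) and in 60 of 919 cells without one (6.53%, 5.02 to 8.32), a ratio of 1.02. That ratio was 1.28 at 1000 UMIs per cell and 1.43 at full depth. Ifngr1 was found in 76.8% (73.0 to 80.3) of Cxcr3-positive and 61.2% (57.9 to 64.3) of Cxcr3-negative cells, a ratio of 1.26 with intervals that do not overlap. The Ifngr1 ratio was 1.06 at full depth and 1.04 in cells with a Foxp3 UMI. For the other members the ratios ran from 0.854 (Ifngr2) to 1.21 (Il12rb2), with overlapping intervals. None of the 8 members was found at least 1.5 times as often in Cxcr3-positive cells, against 5.42% of the 6363 genes found in at least 2% of these cells, whose median ratio was 1.01. Il12rb2 (1.99%) and Ifngr2 (1.03%) lie under that minimum, and a count of 0 is near the background share.

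**Figure D2:**
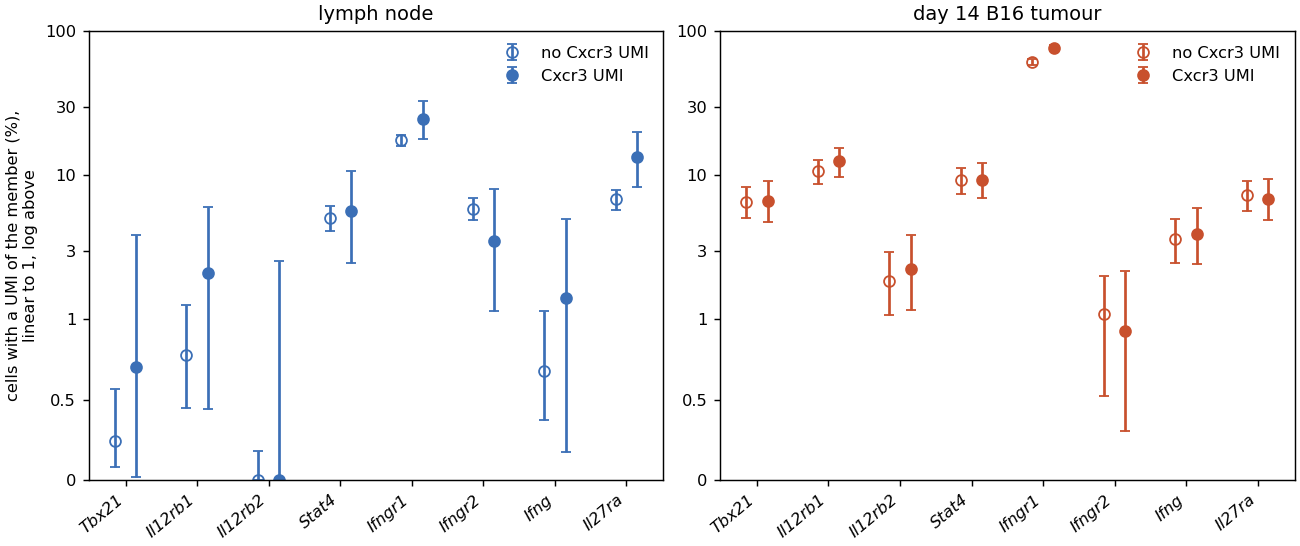
Percent of cells with a UMI of each member (linear to 1%, log above) among cells without (open) and with (filled) a Cxcr3 UMI, in lymph node (left) and tumour (right), every cell thinned to 1811 UMIs, with 95% Clopper-Pearson intervals. In tumour the filled and open points nearly coincide for Tbx21, at 6.69% and 6.53%, and part for Ifngr1, at 76.8% and 61.2%.

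The depth limits this comparison, since 1811 UMIs leave 29 tumour cells with Il12rb2. When the tumour cells were thinned to their own threshold of 3834 UMIs, Tbx21 was found in 13.7% of 853 Cxcr3-positive and 11.4% of 604 Cxcr3-negative cells, with overlapping intervals. The Stat4 shares were then 20.9% (18.2 to 23.8) and 14.1% (11.4 to 17.1), with intervals that do not overlap, and Il12rb2 was found in 5.28% and 3.48%, a ratio of 1.52 with overlapping intervals. That was 1 member of 8 past 1.5, against 5.31% of 8086 genes. Ifngr1 could not reach 1.5 at this depth, since it was found in 77.0% of Cxcr3-negative cells. Ifngr2 (1.85% of cells) lies under the 2% minimum of those genes. Ifngr1 kept the direction, at 87.3% (84.9 to 89.5) and 77.0% (73.4 to 80.3).

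In lymph node the members were too rare in the 142 Cxcr3-positive cells for most comparisons. Tbx21 was found in 1 of them and in 5 of the 2060 others. The ratios of Tbx21 (2.90), Il12rb1 (2.72) and Ifng (2.07) rest on 1, 3 and 2 Cxcr3-positive cells. Il27ra stood higher in Cxcr3-positive cells, at 13.4% (8.25 to 20.1) against 6.80% (5.75 to 7.97), and Ifngr1 at 24.6% (17.8 to 32.6) against 17.5% (15.9 to 19.2), where the intervals overlap. In this library 18.6% of the 6165 genes in at least 2% of cells reached 1.5 times. Set across tissues, Cxcr3-negative tumour cells held Tbx21 more often (6.53%) than Cxcr3-positive lymph node cells (0.704%, 0.0178 to 3.86), and likewise Ifngr1 (61.2% against 24.6%).

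Pairs of members were found together in tumour cells about as often as their single shares predict, with some exceptions. At 3834 UMIs per cell the product of the single shares predicted 35.7 cells with both Tbx21 and Il12rb1, and 49 were seen, a ratio of 1.37. At 1811 UMIs the phi coefficient of that pair was 0.001, so the excess was not seen at the lower depth. Stat4 and Ifng were found together in 13 cells against 19.9 predicted, a ratio of 0.655. For Tbx21 with Il12rb2 it was 11 cells against 8.43 predicted, and for the 2 IL-12 receptor genes 16 against 12.7, or 1.10% of cells (0.629 to 1.78) with both. The interferon-gamma receptor genes were found together in 20 cells against 22.4, or 1.37% of cells (0.840 to 2.11). Over 8087 genes the median of this ratio lay between 0.983 and 1.01 for each member and Cxcr3. These cells share 1 library, and ratios from a few cells are a description only.

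**Figure D3:**
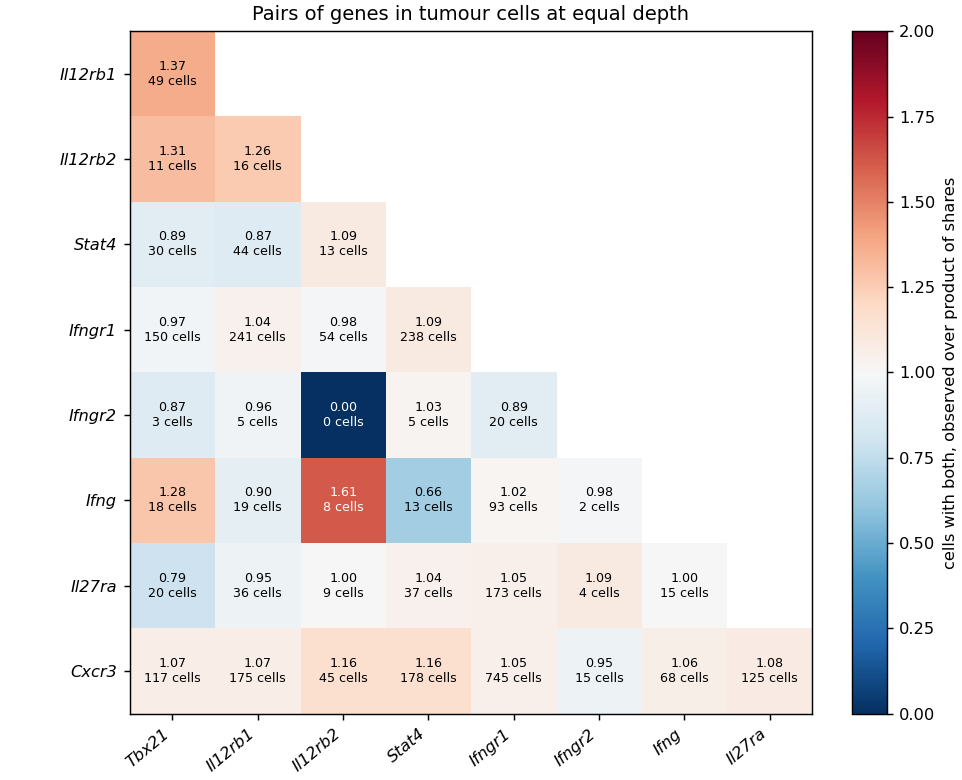
Each square gives, for 2 genes, the number of tumour cells with a UMI of both at 3834 UMIs per cell and that number divided by the product of the 2 shares (colour, white at 1). Most squares lie near 1; Tbx21 with Il12rb1 stands at 1.37 from 49 cells, Il12rb2 with Ifng at 1.61 from 8 cells, Stat4 with Ifng at 0.655 from 13 and Il12rb2 with Ifngr2 at 0.

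The genes detected most alike in tumour cells at equal depth, by the phi coefficient over 1457 cells and 3837 genes, had low coefficients throughout. For Cxcr3 the first was Ifngr1 (0.160), followed by Izumo1r (0.132), the gene of folate receptor 4 on Treg cells, Gm26740, Gm8369 and Hcst. For Ifngr1 they were the chemokine receptor gene Ccr2 (0.178), Ypel3 (0.174), Laptm5, Cxcr3 and Ms4a4b. For Tbx21 they included Akirin1 (0.121), Map2k1, Anapc2 and the chemokine gene Ccl3 (0.102), and for Il12rb2 Eif2ak2 (0.156), Dync1i2, Crot, Mef2d and Lamb3. Coefficients this low in sparse counts are no finding.

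The study's title concerns Treg cells positive for IL-10 and for IL-35, of which Ebi3 encodes a subunit. Detection of the members was also set against Il10 and Ebi3 in tumour cells thinned to 3834 UMIs, a comparison added after seeing the data. In the 152 cells with an Il10 UMI Stat4 was found in 10.5% (6.14 to 16.5), against 18.9% (16.8 to 21.2) of the 1305 cells without one. Those intervals do not overlap, but the first share rests on 16 cells and 1 random draw. How many of all genes differ as far in that direction was not counted. Tbx21 was found in 13.8% (8.76 to 20.3) and 12.6% (10.9 to 14.6), and none of the 8 members was found at least 1.5 times as often in Il10-positive cells, against 6.27% of 8086 genes. Ifngr1 could not reach 1.5, since it was found in 82.5% of Il10-negative cells. Just under 1.5 lay Ifngr2 (1.49, from 4 Il10-positive cells) and Il27ra (1.47). The Il27ra shares were 19.1% (13.2 to 26.2) and 13.0% (11.2 to 14.9), with overlapping intervals. Below 1 with Stat4 lay Ifng (0.765), and Cxcr3 was at 0.840. For the 382 cells with an Ebi3 UMI the ratios of the members ran from 1.02 (Ifngr1) to 1.22 (Il27ra), and none reached 1.5, against 3.85% of genes. Ifngr1, found in 82.7% of Ebi3-negative cells, could not have done so.

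Ccl3, which encodes an inflammatory chemokine, was among the 5 genes detected most like Tbx21. Tbx21 was found in 21.0% of 162 Ccl3-positive and 11.7% of 1295 Ccl3-negative tumour cells, a ratio of 1.79 with intervals that do not overlap. Ifng was found in 13.0% (8.21 to 19.1) and 6.87% (5.56 to 8.39), a ratio of 1.89, and Il12rb2 in 6.79% (3.44 to 11.8) and 4.25% (3.22 to 5.49), a ratio of 1.60. The intervals overlap for both. Of all genes 6.65% reached 1.5, and no count of members is read against it, since Tbx21 was used to choose Ccl3. Cxcr3 went the other way, at 45.1% (37.2 to 53.1) of Ccl3-positive and 60.2% (57.5 to 62.9) of Ccl3-negative cells, with intervals that do not overlap. The Tbx21 value is a description for the same reason.

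To describe cell states, the cells of both libraries were clustered without the 8 genes and Cxcr3, and the clusters are named by number and leading genes. Lymph node cells fell into cluster 1 (1353 cells, led by Igfbp4, Ly6c1, Dapl1 and Bcl2), cluster 3 (760 cells, led by Tbc1d4, Cd83 and Nav2) and 57 cells of cluster 4, besides 10 in cluster 2. Tumour cells fell into cluster 2 (1018 cells, led by Mmp9, Metrnl, Areg and Lilrb4a) and cluster 4 (387 cells, led by mitotic genes such as Nusap1 and Cdk1). Cluster 5, led by interferon-induced genes such as Ifit3, held 22 lymph node and 29 tumour cells and was not described further.

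The lymph node UMIs of Tbx21 and Ifng lay mostly in cluster 3. Of the 24 Tbx21 UMIs 17 were in cluster 3 and 2 in cluster 1, and of the 51 Ifng UMIs 46 and 2. The 57 lymph node cells of cluster 4 held 5 Tbx21 and 3 Ifng UMIs. Relative to its UMIs, Tbx21 was thus no lower in cluster 4, at 4.95 CPM (1.61 to 11.6), than in cluster 3, at 4.41 (2.57 to 7.05). Ifng was at 2.97 CPM (0.613 to 8.68) in cluster 4 and 11.9 (8.73 to 15.9) in cluster 3. At equal depth Ifng was found in 1.84% (1.01 to 3.07) of cluster 3 and 0.148% (0.0179 to 0.533) of cluster 1 cells, and Cxcr3 in 14.6% (12.2 to 17.3) and 1.03% (0.567 to 1.73). Ifngr2 went the other way, at 3.16% (2.03 to 4.66) in cluster 3 and 7.24% (5.92 to 8.76) in cluster 1. Ifngr1 did not differ between them beyond counting error, at 17.0% (14.4 to 19.8) and 18.7% (16.7 to 20.9).

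Among tumour cells Tbx21 was found as often in mitotic cluster 4 as in cluster 2, at 6.72% (4.44 to 9.69) and 6.68% (5.22 to 8.39). Ifngr1 was lower in cluster 4, at 54.0% (48.9 to 59.1) against 72.5% (69.6 to 75.2), as were Stat4, at 4.13% (2.38 to 6.63) against 11.0% (9.15 to 13.1), and Cxcr3, at 24.5% (20.3 to 29.2) against 41.7% (38.6 to 44.7). Il12rb2 was found in 2 cells of cluster 4 (0.517%, 0.0626 to 1.85) and 26 of cluster 2 (2.55%, 1.68 to 3.72). Ifng showed no such order, at 4.13% and 3.63%. Ifngr2 was found in 1.28% (0.682 to 2.17) of cluster 2 and 0.258% of cluster 4, where the first interval overlaps that of lymph node cluster 3.

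**Figure D4:**
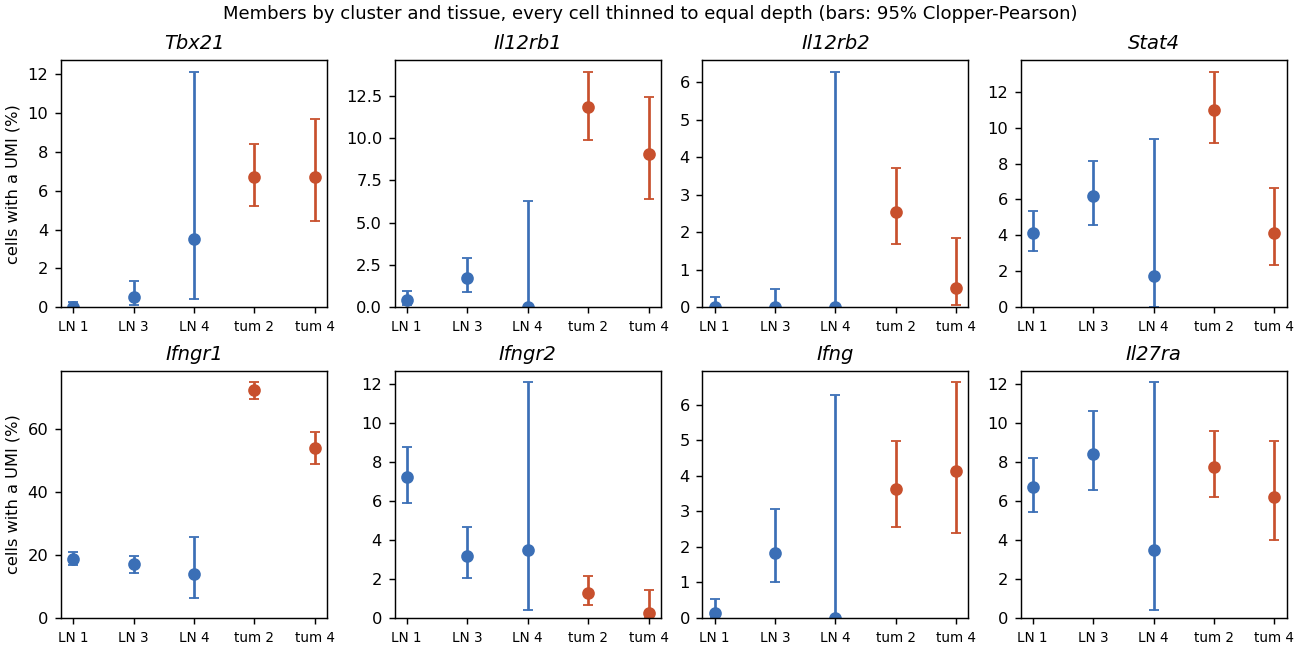
Percent of cells with a UMI of each member in the 5 combinations of cluster and library with at least 50 cells (LN, lymph node; tum, tumour; numbers are clusters), every cell thinned to 1811 UMIs, with 95% Clopper-Pearson intervals. Ifngr1 lies above 50% in both tumour groups and under 20% in all 3 lymph node groups, and Ifngr2 shows the opposite order for the 2 large lymph node groups.

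The wider pathway was described by lists that were chosen with earlier results of these data known. Of 20 measured genes typical of T-bet-directed T cells, Cxcr3 among them, 16 stood 2-fold or more higher in tumour, 1 lower (Xcl1) and 3 between. Of all 11035 genes tested, 14.3% stood as far higher and 9.66% as far lower. The median log2 ratio of the 20 was 3.01, with Ccl3 at its lower bound, beside 0.12 for all genes. At equal depth the share of cells with an Xcl1 UMI was 0.0908% in lymph node and 0.343% in tumour, the opposite order to its summed level. Those shares rest on very few cells and are given without intervals, so their order is a description only. The chemokine genes Ccl4 and Ccl3 were 453-fold (238 to 991) and at least 435-fold higher and Gzmb, which encodes granzyme B, was 75.3-fold higher (63.2 to 90.6). Perforin (Prf1), which acts with granzyme B, had 3 and 36 UMIs, or 2.16 CPM in tumour.

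Interferon-gamma-responsive genes differed less. Of 22 measured, 8 stood 2-fold or more higher, 0 lower and 14 between, with a median log2 ratio of 0.87. Of all genes tested, 14.3% stood as far higher and 9.66% as far lower, with a median of 0.12. The transcription factor gene Irf8 was 4.84-fold (4.29 to 5.47), the chemokine gene Cxcl10 2.97-fold (2.52 to 3.51), the peptide transporter gene Tap1 2.84-fold (2.67 to 3.01) and the GTPase gene Iigp1 2.67-fold (2.42 to 2.95) higher. Many of these genes also respond to type I interferon.

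Of 14 receptor partners and signalling genes, 3 stood 2-fold or more higher, 1 lower (Il6st) and 10 between, with a median log2 ratio of 0.33. Those higher were Il18rap, an IL-18 receptor subunit gene, at 2.94-fold (2.10 to 4.18), Stat3 at 2.50-fold (2.30 to 2.72) and Cish, a feedback inhibitor gene of STAT5 signalling, at 2.33-fold (2.15 to 2.54), while the other IL-18 receptor subunit gene, Il18r1, was 1.42-fold higher (1.26 to 1.61). Regulators of other T helper lineages went both ways, with 4 higher, 2 lower and 5 between and a median log2 ratio of 0.02. Of all genes tested, 14.3% stood as far higher and 9.66% as far lower, with a median of 0.12. The counts of signalling genes and of lower regulators are near those shares. Prdm1 (Blimp-1) was 5.94-fold (4.66 to 7.69), Rora 3.25-fold (2.91 to 3.65) and Maf 2.72-fold (2.52 to 2.94) higher, and Bach2, a repressor of effector genes, was 42.7-fold lower (24.1 to 83.4). Among the ligand genes Il12a, Il12b, Il23a, Il27 and Il6 had at most 1 UMI in either library. Ebi3, a subunit of IL-27 and IL-35, was 4.03-fold higher (3.48 to 4.68), and Il18 2.37-fold (1.16 to 5.35).

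**Figure D5:**
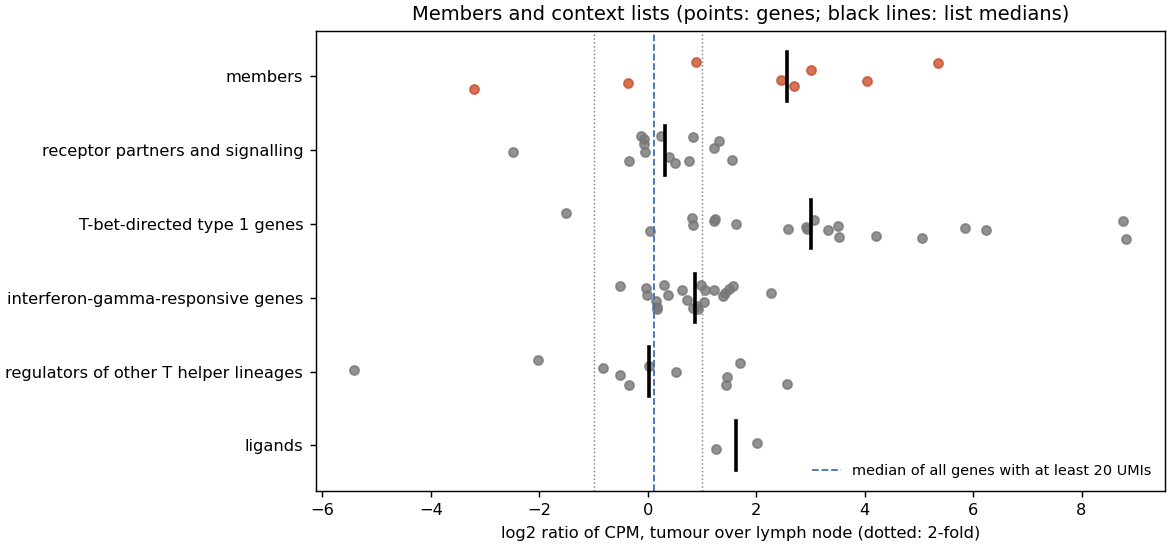
Log2 ratio of CPM, tumour over lymph node, for the 8 members (orange) and for each gene with at least 20 UMIs of 5 context lists (grey); black lines are list medians and the dashed line is the median of all 11035 genes. The T-bet-directed list has its median at 3.01, and the members spread from -3.20 (Ifngr2) to 5.35 (the lower bound of Il12rb2).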

How the data were processed

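The authors deposited, per the file headers, raw UMI counts per gene and barcode in 1 unfiltered matrix for each of 2 libraries. Cell Ranger and the mm10 build are named per the submitters' processing notes; their versions and the annotation are not stated. The deposited gene and barcode lists hold other content, identifiers with no measurement.

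A barcode was taken as a cell from 10% of the UMIs at percentile 99 among the 3000 largest barcodes (1811 UMIs in lymph node, 3834 in tumour), with at least 200 genes, at most 10% mitochondrial UMIs, and under 20 melanoma (Pmel, Dct, Mlana), 3 macrophage (C1qa, C1qb, Lyz2) and 2 B cell (Cd79a, Ms4a1) UMIs. This removed 13 and 14 barcodes for mitochondrial UMIs and, as other cell types, 2 macrophage and 9 B cell barcodes in lymph node and 15 melanoma and 3 macrophage barcodes in tumour. No doublet caller was run and doublets were kept. Counts were summed over cells and divided by their total (CPM). Ratios carry exact conditional-binomial, sums exact Poisson and shares Clopper-Pearson 95% intervals. UMIs of 1 cell are not independent, so the intervals are narrow. UMIs are read at the 3' end and were not scaled by length. The intervals and ratios were tested on simulated data. Clustering used scanpy 1.11.5 (2000 variable genes, 30 components, 15 neighbours, resolution 0.6). Gene positions are those of GENCODE M21 (GRCm38, which mm10 denotes). Python 3.11.15 and scipy 1.17.1 were used.

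The named genes are all members and Cxcr3, up to 4 genes of each context list by the interval bound nearest to 1, 8 genes set by name, and the 5 genes most alike in detection to each of 4 genes; Xcl1, Prf1, Serbp1 and the unmeasured ligand genes were named after their values were seen. Some genes that this rule names are not reported here. The members and lists were chosen with earlier results of these data known. No test was made because each group has 1 library.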

Additional observations from a re-analysis of the deposited data

How the results depend on the processing

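The number of members at least 2-fold higher in tumour was 5 or 6 under 10 alternatives, the last of them (without cells with a natural killer or CD8 T cell marker UMI) chosen after seeing the data. The 6th, where it occurred, was Stat4. Over these settings the ratio ranged from 10.6 to 30.1 for Tbx21, 4.50 to 14.3 for Il12rb1, 1.45 to 2.44 for Stat4, 6.04 to 8.71 for Ifngr1 and 5.09 to 9.08 for Ifng, and Ifngr2 stayed lower in all. Il27ra turned direction, to 1.01 with every cell thinned and to 1.01 without cells with mitotic UMIs. TMM scaling shifted every log2 ratio by -0.10. The number of members found at least 1.5 times as often in Cxcr3-positive tumour cells was 0, but 1 when thinned to the tumour threshold (Il12rb2), 1 in another random draw (Il12rb2, 1.90) and 2 in cells with a Foxp3 UMI (Il12rb2 and Ifngr2, 3.88 and 1.94, from few cells); it was 0 under the other 5. In that other draw Il27ra was at 1.49, against 0.943, while Tbx21 was at 1.01, against 1.02. Ifngr1 was found in too many cells to reach 1.5 at the tumour threshold or at full depth. Over the 8 alternatives the ratio of Cxcr3-positive to Cxcr3-negative shares ranged from 0.922 to 1.43 for Tbx21 and 1.04 to 1.33 for Ifngr1. No paired analysis was possible because each group has 1 library.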
